A study of Mus musculus with 10 samples.

Results

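AHR peaks at protein-coding promoters were the peaks of the wild type list whose midpoint lay from 1000 bp upstream to 100 bp downstream of a transcript start of a protein-coding gene. There were 2158 such peaks among the 123366 wild type peaks on chromosomes 1 to 19, X and Y, and 123652 in the whole list. They were assigned to 2033 genes, which is 9.27% of the 21938 protein-coding genes annotated on these chromosomes in GENCODE release M21. Membership rested on position alone, and no score or AHR KO value was used. AHR is the aryl hydrocarbon receptor, and the peaks mark DNA recovered with an antibody against it and sequenced (ChIP-seq) from mouse colon organoids, which are epithelial cultures grown from crypts. All organoids were kept in Wnt3a-supplemented WENR medium, the regenerative condition, and all were stimulated for 1 h with 5 nM FICZ, a ligand of AHR. The wild type group had 4 AHR ChIP libraries and 4 inputs (sheared chromatin without the antibody step). The AHR KO group, which served as the control for antibody signal without AHR, had 1 ChIP library and 1 input in the labels. The methods name 4 biological replicates for both genotypes, which differs from the 1 AHR KO library of the labels, and how many knockout cultures that library covers is not given in the sources used here. Per the study's methods the knockout organoids came from Vil-Cre Ahr fl/fl mice, in which the villin promoter drives Cre in intestinal epithelium. The age and sex of the animals were not given in the labels used here. The wild type cultures entered a single list, so no value could be given per culture, and a peak list holds no expression with which to check the cell type. No difference between the genotypes therefore has a replicate check.

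AHR is a bHLH-PAS protein that rests in the cytoplasm, moves to the nucleus when it binds a ligand such as FICZ, and there pairs with ARNT. The pair binds DNA with the core GCGTG, usually within the longer word TNGCGTG (N is any base), known as the xenobiotic response element. Its classical targets encode detoxifying enzymes such as Cyp1a1 and Cyp1b1, which in the intestine also break down AHR ligands. Promoters of many housekeeping genes lie in GC-rich sequence with many CpG dinucleotides, whereas other promoters hold simple repeats.

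The sequences below range from promoter windows with few masked bases to windows over long repeat tracts. Each is the 200 bp around a peak's midpoint in GRCm38 (RefSeq sequence GRCm38.p6), written 5′ to 3′ on the strand of its gene, with every GCGTG or its reverse complement CACGC in capitals. The first group holds peaks with little repeat sequence. The Cyp1a1 window was chr9:57696568-57696767 (plus strand), the Cyp1b1 window chr17:79715852-79716051 (minus strand) and the Fst window chr13:114459038-114459237 (minus strand). Each of them held the full TNGCGTG word on the strand opposite to the gene.
Cyp1a1: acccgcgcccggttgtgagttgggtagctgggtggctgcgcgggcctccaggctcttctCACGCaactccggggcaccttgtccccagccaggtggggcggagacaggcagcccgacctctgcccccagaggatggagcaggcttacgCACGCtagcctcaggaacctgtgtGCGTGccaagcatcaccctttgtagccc
Cyp1b1: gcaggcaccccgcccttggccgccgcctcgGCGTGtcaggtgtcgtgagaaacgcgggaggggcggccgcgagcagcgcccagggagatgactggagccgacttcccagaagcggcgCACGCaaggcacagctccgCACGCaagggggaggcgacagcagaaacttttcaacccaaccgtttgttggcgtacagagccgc
Fst: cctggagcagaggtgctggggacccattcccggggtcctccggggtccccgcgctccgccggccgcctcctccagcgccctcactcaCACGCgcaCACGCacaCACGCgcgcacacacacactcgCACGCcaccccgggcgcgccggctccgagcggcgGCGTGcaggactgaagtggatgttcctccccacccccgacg
Cyp1a1 carried the full word as CACGCAA at base 60 and CACGCTA at base 149 of this window. Cyp1b1 carried CACGCAA at bases 118 and 137, and Fst carried CACGCCA at base 126.

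With 51.5% and 18.5% masked bases, the next windows, at Sox9 and Baz2b, held the full word and a tract of CA or TG repeats. They were chr11:112781779-112781978 (plus strand) for Sox9, which carried TCGCGTG at base 41, and chr2:60210407-60210606 (minus strand) for Baz2b, which carried TTGCGTG at base 178.
Sox9: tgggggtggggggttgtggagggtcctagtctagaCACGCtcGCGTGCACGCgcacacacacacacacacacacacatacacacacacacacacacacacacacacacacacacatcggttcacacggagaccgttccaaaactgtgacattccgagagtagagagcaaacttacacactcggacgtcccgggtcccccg
Baz2b: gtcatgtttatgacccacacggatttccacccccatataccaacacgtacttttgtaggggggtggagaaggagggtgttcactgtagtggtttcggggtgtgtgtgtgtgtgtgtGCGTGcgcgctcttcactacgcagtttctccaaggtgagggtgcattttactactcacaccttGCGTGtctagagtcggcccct
Among the 4 highest-scoring promoter peaks, those of Pla2g4a, S100a10 and Ndnf lay over long CA, TG or GA tracts and held the core but no full word. Their windows were chr1:149961467-149961666 (minus strand), chr3:93554859-93555058 (plus strand) and chr6:65671322-65671521 (plus strand).
Pla2g4a: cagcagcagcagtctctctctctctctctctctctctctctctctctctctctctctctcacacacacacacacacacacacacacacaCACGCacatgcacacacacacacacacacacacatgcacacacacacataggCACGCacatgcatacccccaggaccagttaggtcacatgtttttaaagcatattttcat
S100a10: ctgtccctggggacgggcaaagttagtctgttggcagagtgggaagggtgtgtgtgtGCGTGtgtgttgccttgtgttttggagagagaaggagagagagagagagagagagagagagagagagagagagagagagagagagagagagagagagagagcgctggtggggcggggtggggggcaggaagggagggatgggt
Ndnf: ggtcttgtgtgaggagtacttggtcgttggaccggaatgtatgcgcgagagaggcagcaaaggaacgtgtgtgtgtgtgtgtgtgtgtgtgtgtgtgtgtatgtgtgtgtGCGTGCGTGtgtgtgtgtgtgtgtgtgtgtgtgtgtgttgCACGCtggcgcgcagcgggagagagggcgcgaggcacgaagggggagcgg
In Pla2g4a and Ndnf most copies of the core stood inside or beside the repeat tract itself. The fourth of these peaks, at Myo7a, had 13 copies of the core and lay over an exon, so that its sequence is not shown.

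Each peak has a score, the fold enrichment of ChIP signal over the expected background. The 20 highest promoter peaks scored from 14.9 to 31.4 and mostly covered repeats. Of these 20, 16 held a CA repeat (CACACA or TGTGTG in at least 3 separate copies per 200 bp window) and 2 a GA repeat (at least 3 copies of GAGAGA or TCTCTC, and no CA repeat). The highest, 31.4, belonged to Myo7a, a myosin of hair cells, at chr7:98103130-98103517. It ranked 15 in the whole wild type list. Pla2g4a, which encodes a phospholipase that releases arachidonic acid, followed at 24.3, S100a10, the partner of annexin A2, at 20.9, and Ndnf, a secreted neurotrophic factor, at 20.7. Stc2, a glycoprotein hormone, scored 20.3, Mecom, a zinc finger transcription factor, 18.6, and Tshz2, another one, 18.5. A peak of score 18.2 lay at the neighbouring starts of Ccr10, a chemokine receptor, and Cntnap1.

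Cyp1a1 ranked ninth among the promoter peaks, with a score of 17.97 (chr9:57696412-57696924), and was the only one of the 20 highest with no repeat-masked base in its window. The midpoint lay 945 bp upstream of a Cyp1a1 transcript start, in an intron of a longer Cyp1a1 transcript, and the gene record begins 8740 bp before the midpoint. Below it came St3gal6, a sialyltransferase, at 16.9. Ttc17 (16.7), Podxl (16.6), Gbp5 (16.3), Atpaf2 (16.1), Nln (15.6), Clcn4 (15.4) and Spop (15.3) followed. Ripk2, a kinase of NOD receptor signalling, scored 15.1, and Sox9, a transcription factor of intestinal stem and progenitor cells, scored 14.9 with its midpoint 345 bp upstream of its start (chr11:112781712-112782046). Ranks within this group rest on 1 score per peak with no measure of error, so neighbours in this order cannot be separated.

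**Figure D1:**
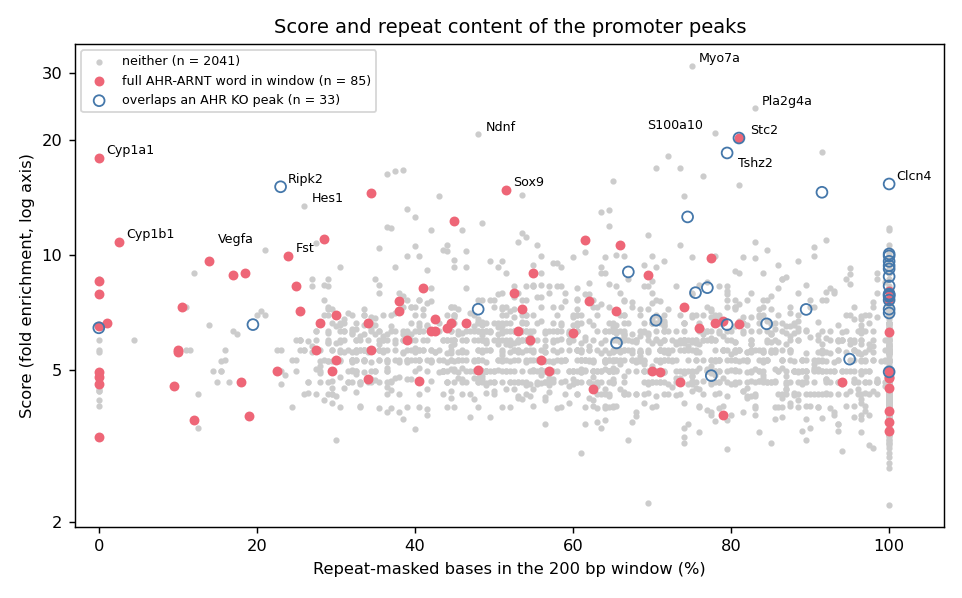
Score of each of the 2158 promoter peaks (vertical, fold enrichment, log axis) against the percentage of repeat-masked bases in its 200 bp window (horizontal), with peaks holding TNGCGTG in red and peaks overlapping an AHR KO peak circled in blue. Cyp1a1 (17.97) and Cyp1b1 (10.8) stand at the left with almost no masked bases, while Myo7a (31.4), Pla2g4a (24.3) and most circled peaks lie to the right.

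Promoter peaks were more often among the high scores than other peaks. Of the 2158 promoter peaks, 326 (15.1%, 95% Wilson interval 13.7 to 16.7) were in the top 10% of the scores of the list, against 12042 of 121208 other peaks (9.93%, 9.77 to 10.1). The odds ratio was 1.61 (Fisher's exact test, two-sided, adjusted p = 1.88e-13). The middle of the distribution differed little. The median score was 5.58 (quartiles 4.72 and 6.39) at promoters and 5.32 (quartiles 4.53 and 5.98) elsewhere. A score of at least 10 was reached by 69 promoter peaks (3.20%) and 1244 other peaks (1.03%), an odds ratio of 3.19. The highest scores of the list, up to 60.4, were those of other peaks. Against other peaks within 10 kb of a protein-coding start the odds ratio was 1.39, and within 250 bp upstream to 50 bp downstream of a start it was 2.33. Among windows with a CA repeat it was 1.33 (19.6% against 15.4%), the lowest of the alternatives. Among windows with under 25% repeat-masked bases it was 2.02 (22.4% against 12.5%). Here and below, p-values were adjusted over 8 tests and intervals cover counting error only. The p-values refer to the contents of these lists, since peaks are not replicate cultures.

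**Figure D2:**
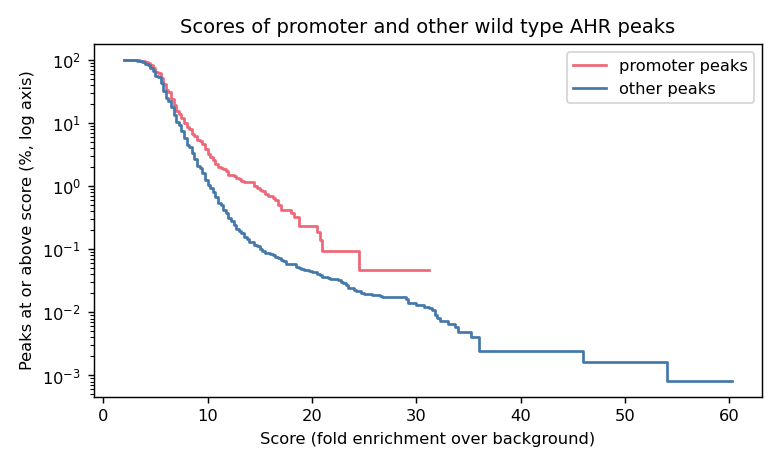
Percentage of peaks at or above each score (vertical, log axis) for promoter and other wild type peaks, against the score as fold enrichment (horizontal). At a score of at least 10 the promoter curve stands at 3.20% and the other curve at 1.03%, while the promoter curve ends at 31.4 and the other curve goes on to 60.4.

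The depth behind these scores was read from the scores themselves. Scores over the genome-wide background lie on whole multiples of a step, and 1130 promoter peaks (52.4%) did so, within 2e-05 per 10 steps. The step corresponded to a background of 2.01 fragments, and the median pileup of those promoter peaks was 16 fragments (quartiles 14 and 18, range 10 to 72). In the AHR KO list 333 of 1931 peaks lay on a step that corresponded to 0.287 fragments, with a median pileup of 8. A score near the median thus rested on few fragments.

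Repeats took up most promoter peaks, but less completely than elsewhere. At least 50% of the window was repeat-masked in 1598 promoter peaks (74.1%, 72.2 to 75.9) and in 86.3% of other peaks (odds ratio 0.454, Fisher's exact test, adjusted p = 3.44e-49). Windows that were masked throughout made up 16.9% of promoter peaks and 36.8% of other peaks. The share at least 50% masked fell to 57.4% within 250 bp upstream to 50 bp downstream of a start (odds ratio 0.217), and with a limit of 25% masked bases the odds ratio was 0.126. Promoter sequence without a peak was of another kind. Windows of 200 bp were tiled over the promoter intervals of all protein-coding genes, most of which had no promoter peak. Of the 263466 windows that touched no wild type or AHR KO peak, 11.9% were at least 50% masked.

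CA repeats were the most frequent kind of sequence in promoter peaks. They were present in 1435 promoter peaks (66.5%, 64.5 to 68.5), in 57.1% of other peaks (odds ratio 1.49, Fisher's exact test, adjusted p = 2.86e-18) and in 5267 promoter windows without a peak (1.999%). The difference from promoter windows without a peak was 64.5 percentage points (interval 62.5 to 66.5), with an odds ratio of 97.3 and a p-value below the smallest number the software stores. In the top 10% of scores 281 of 326 promoter peaks (86.2%) held a CA repeat (odds ratio 306), and in windows of 100 bp the odds ratio was 162. The remaining promoter peaks comprised 206 with a GA repeat, 438 with other masked sequence and 79 with none of these. Median scores were 5.84 for CA repeats, 5.55 for GA repeats, 4.65 for other masked sequence and 5.58 for the 79 others. Of the 438 with other masked sequence, 9 (2.05%) reached the top 10% of scores, against 281 of 1435 (19.6%) with a CA repeat and 15 of 79 (18.99%) of the mostly unmasked kind. Reads from repeats can map to several places, how such reads were counted is not given in the sources used here, and their part in these scores was not tested.

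**Figure D3:**
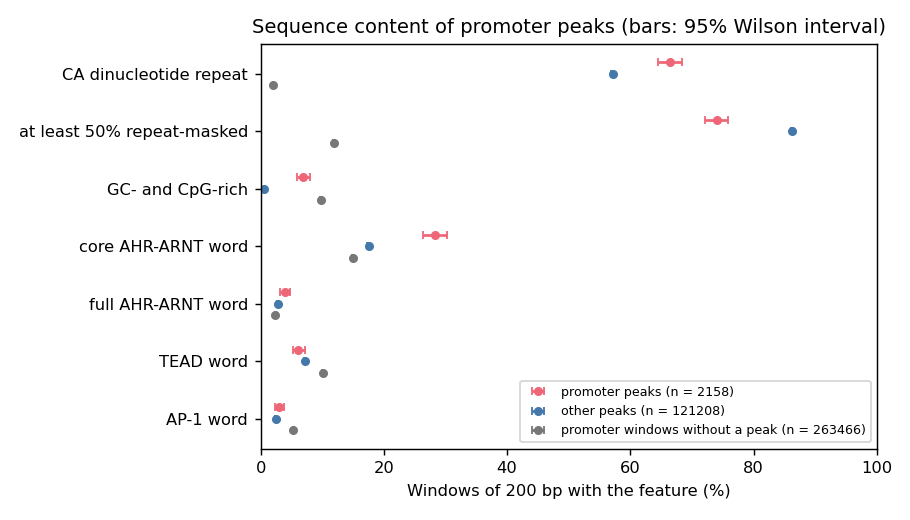
Percentage of 200 bp windows (horizontal) with each sequence feature (rows) in promoter peaks, other peaks and promoter windows without a peak, with 95% Wilson intervals. CA repeats stand at 66.5%, 57.1% and 1.999%, and the full AHR-ARNT word at 3.94%, 2.82% and 2.36%.

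Fewer promoter peaks lay close to the start than farther upstream. From 1000 to 400 bp upstream each 100 bp held between 201 and 246 promoter peaks. The count was 177 from 200 to 100 bp upstream, 132 in the last 100 bp before the start and 99 in the first 100 bp after it. The peaks nearer to the start had less repeat sequence. Of the 67 promoter peaks with under 25% masked bases, 44 (65.7%, 53.7 to 75.9) lay within 250 bp of a start, against 449 of the 2091 with more (21.5%, 19.8 to 23.3). The share in the top 10% of scores varied between 10.2% and 24.9% over the bins of 100 bp, and was 15.9% in the last 100 bp before the start. At the upstream edge, peaks at Olfr686 and Mid1 (both at 1000 bp, scores 4.98 and 4.03) and Tmem191c (999 bp, 3.96) were just inside. Socs4 (1001 bp, 5.32), Il15ra (1002 bp, 4.51) and Aox3 (1003 bp, 5.65) were just outside. At the downstream edge 2200002J24Rik (99 bp, 6.82), Espl1 (98 bp, 4.98) and Klf3 (97 bp, 6.198) were inside, and Sema4a (102 bp, 5.32), Padi3 (102 bp, 5.32) and Pofut1 (104 bp, 4.98) outside.

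**Figure D4:**
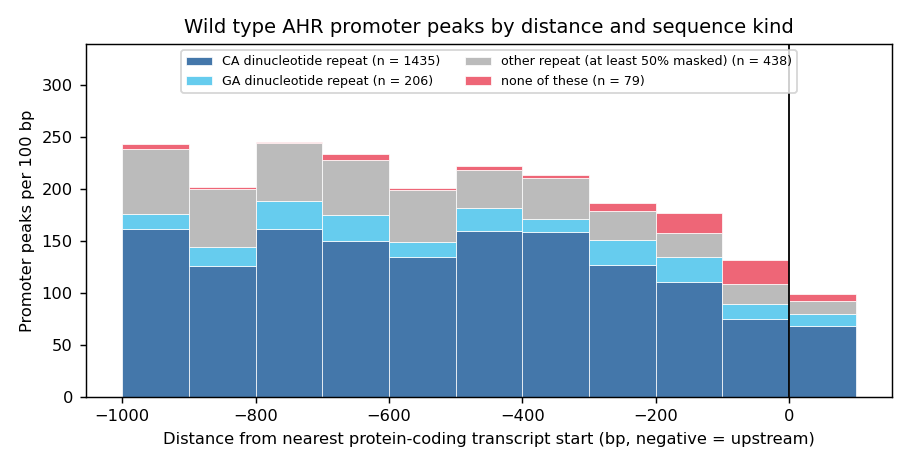
Number of promoter peaks per 100 bp (vertical) by distance of the midpoint from the nearest protein-coding transcript start (horizontal, bp), stacked by kind of sequence. Counts go from 244 at the upstream edge to 132 just before the start and 99 after it, and the red part (neither CA or GA repeat nor at least 50% masked) is largest in the last 200 bp before the start.

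Many of the starts were not the first start of their gene. Only 988 promoter peaks (45.8%) also lay within the same interval around the start of the whole gene record, and 1170 lay at other starts. The midpoint was in an intron of a protein-coding gene in 1153 peaks (53.4%), outside such genes in 858 (39.8%), in an exon outside the coding sequence in 144 (6.67%) and in a coding exon in 3. The median score was 5.59 at the start of the record and 5.57 at other starts. Genes with more annotated starts had a promoter peak more often: 190 of 4882 genes with 1 start (3.89%) did, as did 573 of 3326 genes with 8 or more (17.2%).

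Most genes had a single promoter peak, namely 1881, while 145 had 2, 5 had 3 and 2 had 4. The 2 genes with 4 were Ank3, an ankyrin with 37 annotated starts, and Sfi1, a centrosome protein with 18. The Ank3 peaks scored between 4.17 and 6.65. The Sfi1 peaks scored between 2.21 and 4.72, and all 4 lay over masked sequence without a CA or GA repeat. In 34 peaks the midpoint served starts of 2 or more genes. The most, 3 genes, were Cpne1, Gm28036 and Rbm12, which share overlapping records and had 2 such peaks (scores 5.54 and 5.32). Of the 32 peaks at starts of 2 genes, 19 had the genes on opposite strands. Chromosome X held 17 promoter peaks, at 15 of its 948 protein-coding genes (1.58%), and Y held 3. On the autosomes the share of genes ranged from 6.80% on chromosome 13 to 11.3% on chromosome 5. The X chromosome also had few peaks in all, 1762.

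The full TNGCGTG word was present in a small share of promoter peaks, and it was enriched over other promoter sequence. It was found in 85 promoter peaks (3.94%, 3.20 to 4.84), in 2.82% of other peaks and in 6224 promoter windows without a peak (2.36%). The odds ratio against the promoter windows was 1.69 (Fisher's exact test, adjusted p = 1.09e-05). Among promoter peaks in the top 10% of scores 30 of 326 (9.20%) had the word, an odds ratio of 4.19. The core GCGTG alone, which is contained in the full word and was counted on both strands too, was present in 28.3% of promoter peaks, 17.5% of other peaks and 15.04% of promoter windows without a peak. The 85 peaks had a median score of 6.45 (quartiles 4.96 and 7.91), against 5.57 (quartiles 4.69 and 6.31) for the 2073 without the word. A word in a window is a match of letters and not a measured binding site.

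Of the 85 promoter peaks with the word, 47 (55.3%) held a CA repeat and 22 (25.9%) had under 25% masked bases. The share with the word was highest in promoter peaks with little repeat. With under 25% masked bases, 22 of 67 promoter peaks had it (32.8%, 22.8 to 44.7), against 5196 of 190581 promoter windows without a peak that met the same limit (2.73%), an odds ratio of 17.4 (p = 3.30e-18, Fisher's exact test, not adjusted). Other peaks under the same limit had it in 31 of 488 cases (6.35%, 4.51 to 8.88). Base composition differed as well. Sequence with at least 55% GC and a CpG ratio of at least 0.65 made up 43 of the 67 (64.2%), 12.9% of the promoter windows and 5.33% of the other peaks under the limit. Where both sides were restricted to at least 60% GC, 18 of 48 peaks (37.5%) and 5.68% of windows had the word (odds ratio 9.96), in a comparison chosen after the data had been seen.

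The 22 promoter peaks with under 25% masked bases and the full word were led by the enzymes of xenobiotic metabolism. Cyp1a1 scored 17.97 and Cyp1b1 10.8 (chr17:79715797-79716108, midpoint 891 bp upstream of the start), and each held 2 copies of the word. Fst, which encodes the activin inhibitor follistatin, scored 9.97. Maff, a small Maf transcription factor, scored 9.64, with the midpoint 14 bp downstream of a start. Baz2b, a bromodomain protein, scored 8.99 and Kifc3, a kinesin, 8.88. Ccno, a cyclin needed for multiciliated cells, scored 8.55, the glucose transporter family member Slc2a6 7.91 and Ahcyl2 7.31. Wdr61 (6.65) and Ripk4, a kinase of epidermal differentiation, (6.51) followed.

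The other members of the 22 had scores of 5.65 or less. Susd6 scored 5.65, Rnf39 5.56, the fatty aldehyde dehydrogenase gene Aldh3a2 4.98, Vkorc1l1 4.93 and the tRNA synthetase gene Eprs 4.79. The start shared by Safb and Safb2 scored 4.65, the thiamine transporter gene Slc19a2 4.59, and Raly, at a start region shared with the agouti gene, 4.53. A peak at the neighbouring starts of Nkapd1 and Pih1d2 scored 3.78, Caprin2 3.69 and Cdip1 3.34. Of the 22, 16 lay within 250 bp of a start and 18 at the start of the gene record. None of the 22 overlapped an AHR KO peak. The 95% Wilson upper limit for 0 of 22 was 14.9%, above the 1.53% of all promoter peaks.

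Other promoter peaks with under 25% masked bases lacked the word. Ripk2 scored 15.1 with no copy of the core. Vegfa, the vascular endothelial growth factor gene, scored 10.3 and Lamc1, a laminin chain of the basement membrane, 8.64, and each held 3 copies of the core. Rabgap1l scored 8.97 with 1 copy. Mast3 (7.93) and Ccdc82 (7.31) had none.

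The words of TEAD and AP-1, factors of Hippo and stress signalling, were less frequent in promoter peaks than in other promoter sequence. The TEAD word GGAATG was found in 132 promoter peaks (6.12%, 5.18 to 7.21) and in 10.1% of promoter windows without a peak (odds ratio 0.583, Fisher's exact test, adjusted p = 2.06e-10). The AP-1 word TGANTCA was found in 66 (3.06%, 2.41 to 3.87) and in 5.28% (odds ratio 0.566, Fisher's exact test, adjusted p = 1.24e-06). For AP-1 the odds ratio was 0.315 in windows of 100 bp and 0.250 in windows at least 75% masked, while restricting the promoter peaks to the top 10% of scores gave 0.806, which no longer passed (p = 0.534, Fisher's exact test). The direction turned in windows with under 25% masked bases, where the TEAD word stood in 10 of 67 peaks and 10.6% of windows (odds ratio 1.47, p = 0.236) and the AP-1 word in 6 of 67 peaks and 5.37% of windows (odds ratio 1.73, p = 0.175, both by Fisher's exact test). Neither of these reversed differences passed the test. In windows that also had at least 60% GC, a comparison added after the data had been seen, the odds ratio was 2.47 for TEAD (p = 0.0338) and 3.08 for AP-1 (p = 0.0819, Fisher's exact test, not adjusted).

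The share of peaks that overlapped the AHR KO list was small and was not found to differ between promoters and elsewhere. The length of that list limits this share. On chromosomes 1 to 19, X and Y it held 1873 peaks, against 123366 in the wild type list, of which 1805 were shared. A small share therefore does not show that AHR KO peaks lacked a wild type counterpart. A shared base with an AHR KO peak was found in 33 promoter peaks (1.53%, 1.09 to 2.14) and in 1772 other peaks (1.46%, 1.40 to 1.53), beside 1.46% of all wild type peaks. The difference was 0.0672 percentage points (interval -0.376 to 0.681, Fisher's exact test, adjusted p = 0.786). The overlap was more frequent among high scores. It was 23 of 326 (7.06%, 4.75 to 10.4) in the top 10% of scores and 10 of 1832 (0.546%, 0.297 to 1.00) below it, and among other peaks the shares were 8.86% and 0.646%. The AHR KO list came from 1 library and its background was lower, so that a wild type peak without an AHR KO peak may lack one through depth, which cannot be told apart from the genotype.

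Of the 33 shared peaks, 24 held a CA repeat (72.7%, 55.8 to 84.9), beside 66.5% of all promoter peaks. A further 5 had other masked sequence, 4 were mostly unmasked, and none of the 206 promoter peaks with a GA repeat was among them (95% Wilson upper limit 1.83%, which includes the 1.53% of all promoter peaks). Their median masked share was 91.5%, and their median width 507 bp, against 68.5% and 223 bp for the 2125 promoter peaks without an AHR KO peak. The highest were Stc2 (20.3), Tshz2 (18.5), Clcn4, a chloride transporter, (15.4) and Ripk2 (15.1). Ints4, an Integrator subunit, followed at 14.6, Lzts2, a regulator of beta-catenin, at 12.6, 9130230L23Rik at 10.1, Tmem229a at 9.96, the phosphatase gene Inpp5k at 9.64 and the surfactant gene Sftpb at 9.39. Of the 85 promoter peaks with TNGCGTG 1 was shared, that of Stc2 (1.18%, 0.208 to 6.37), beside 32 of 2073 without the word (1.54%). It lay 328 bp upstream of the start, over 22 copies of CACACA or TGTGTG. The widest promoter peak, 38557 bp at Gm10719 on chromosome 9 (score 5.34, 95% of its central window masked), was also shared. The next widest was the shared peak at Usp29 with 1288 bp.

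Of the 20 genes listed as AHR pathway members or classical targets, 3 had a promoter peak, Cyp1a1 (17.97), Cyp1b1 (10.8) and the glutathione transferase gene Gsta2 (3.99, over fully masked sequence without the core). Their share of 15% (5.24 to 36.04) included the 9.27% of all protein-coding genes. Among all 100 cytochrome P450 genes 11 had a promoter peak, 2 of them with under 25% masked bases. Of the 25 glutathione S-transferase genes 2 had one, and of the 22 UDP glucuronosyltransferase genes, whose enzymes conjugate drugs and hormones, none.

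Transcription factors of the intestinal epithelium had a promoter peak in 8 of 26 genes (30.8%, 16.5 to 49.99), beside 9.27% of all protein-coding genes. The list was chosen with earlier results known, so this share is a description. Sox9 (14.9) and Maf (7.97) were in the top 10% of scores. Gata6 (6.30), Foxa1 (6.15) and Hnf4a (3.99) were below it. Sox9 and Maf held 1 full word each. Gata6 and Foxa1 lay over CA repeats without the full word, and the Hnf4a window was fully masked.

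Genes of the Wnt pathway, which maintains colonic stem cells, had a promoter peak in 3 of 26 cases (11.5%, 4.00 to 28.98), an interval that includes the 9.27% of all genes. They were Myc (7.03), the feedback inhibitor Axin2 (6.58) and the secreted Wnt deacylase gene Notum (5.65), all over CA repeats and without the full word. Of 22 genes of YAP, TEAD and Hippo signalling 5 had one (22.7%, 10.1 to 43.4, beside 9.27%). These were Wwc1 (6.58), Vgll4 (5.98), Tead2 and Lats2 (both 5.65) and Nf2 (5.27), with the full word at Tead2 alone. Of 17 fetal-like and regenerative genes Clu (6.98) and Anxa1 (6.25) had one. Among 24 genes of mature colon epithelium the 3 were Vil1, whose product builds the brush border (7.83), Tph1 of serotonin synthesis (6.90) and the hormone gene Cck (5.92).

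Notch signalling, which keeps progenitors from becoming secretory cells, had 4 of 17 genes with a promoter peak (23.5%, 9.56 to 47.3, beside 9.27% of all genes). Its target Hes1 scored 13.5, ranked 220 in the whole list and lay 168 bp upstream of the start with 26% of its window masked. Notch3 scored 6.65, Rbpj 5.27 and Notch1 4.37. Of 13 AP-1 family genes 3 had one, Maff (9.64), Jun (7.13) and Mafg (6.65). Of 20 other bHLH-PAS and circadian genes 4 had one, the hypoxia factor gene Hif1a (6.25, with the full word), the clock genes Arntl (5.92), Per3 (5.84) and Cry1 (3.99). The best-scoring promoter peaks of the 35 genes in these 9 lists included none that overlapped an AHR KO peak, beside 33 of 2033 over all genes. The number of annotated starts differed between lists, with a median of 3 over all protein-coding genes, 3 for the intestinal transcription factors and 5.5 for the YAP, TEAD and Hippo list, and its part in the shares was not tested.

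**Figure D5:**
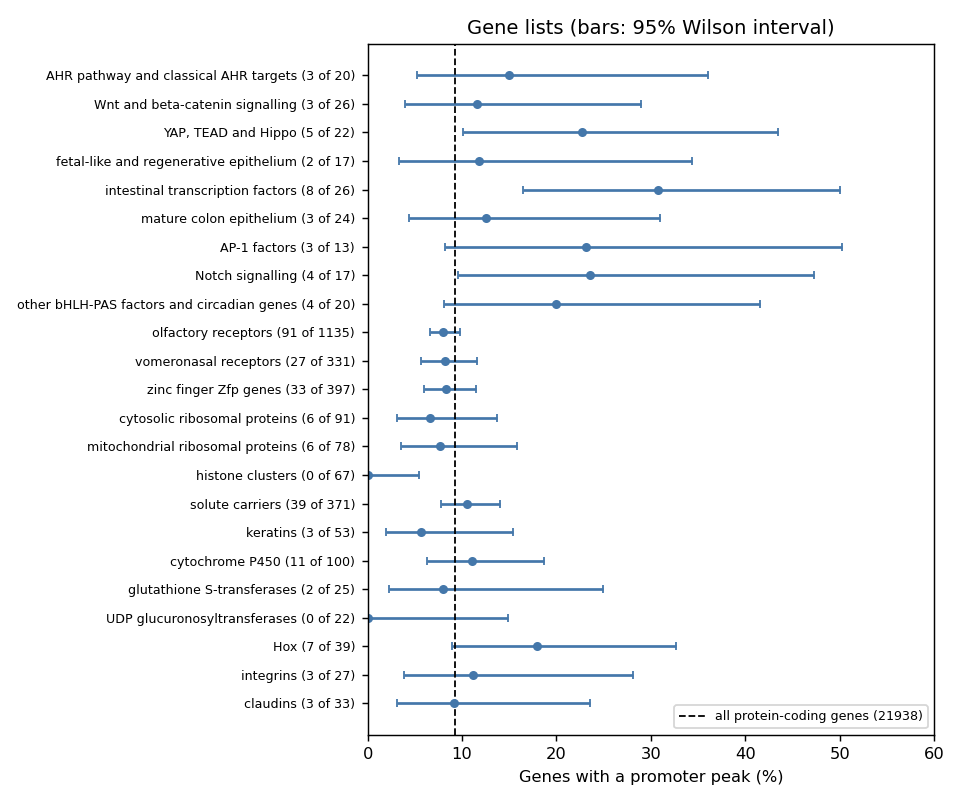
Percentage of genes with a promoter peak (horizontal) in each gene list or family (rows, with counts), with 95% Wilson intervals, beside the 9.27% of all protein-coding genes (dashed line). The olfactory receptors stand at 8.02% and the histone clusters at 0, and the intervals of the short lists are wide.

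Olfactory receptor genes, which serve smell in nasal epithelium, had a promoter peak in 91 of 1135 cases (8.02%, 6.58 to 9.74, beside 9.27% of all genes). Of these 91 best peaks 69 were CA repeats, beside 1364 of 2033 over all genes with a promoter peak. The highest was Olfr1256 at 9.97. Vomeronasal receptors had 27 of 331 (8.16%), Zfp zinc finger genes 33 of 397 (8.31%) and solute carriers 39 of 371 (10.5%). Cytosolic ribosomal protein genes had 6 of 91 (6.59%) and mitochondrial ones 6 of 78 (7.69%). Hox genes had 7 of 39 (17.9%, 8.98 to 32.7), integrins 3 of 27, claudins 3 of 33 and keratins 3 of 53. None of the 67 histone cluster genes had one (95% Wilson upper limit 5.42%). Their median number of annotated starts was 1, and 3.89% of all genes with 1 start had a promoter peak, a share below that limit.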

How the data were processed

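ChIP-seq reads of FICZ-treated colon organoids were aligned by the authors to mm10 (GRCm38) with BWA 0.7.15, duplicates were marked with Picard 2.1.1, and peaks were called with MACS2 2.1.1 against input and annotated with HOMER 4.8. The deposited values were 1 wild type and 1 AHR KO peak list, whose score the authors gave as a fold enrichment, a ratio of ChIP to background. Each IP was set against its own input, and the authors used Bedtools intersect and their own scripts to compare the peaks of different experiments. Whether the single wild type list was made by such a step or from pooled reads is not given in the sources used here. Starts were treated as counted from 1, since some peaks at scaffold edges start at 1 and none at 0. Peaks on other sequences (286 wild type, 58 AHR KO) were left out.

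Midpoints were compared with GENCODE M21 transcript starts, and overlap was counted from 1 bp. Words were searched on both strands of 200 bp windows, and lower-case bases of the RefSeq GRCm38.p6 sequence were taken as repeats. Shares have 95% Wilson intervals, and differences have Newcombe intervals. The 8 comparisons used two-sided Fisher's exact tests (scipy 1.17.1, statsmodels 0.14.6) with Benjamini-Hochberg adjustment. Alternatives changed the promoter interval, the comparison peaks, the overlap, the score and masking limits, the window and the words, and their p-values were not adjusted. The functions were tested on simulated data.

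Named genes were the 20 highest promoter peaks, the 15 highest with under 25% masked bases and all 22 under that limit with TNGCGTG. To these came the 10 highest shared with the AHR KO list and up to 5 genes of each list. The genes and peaks with most assignments and 3 peaks on either side of each edge were named too. Beyond these, Hnf4a, Usp29 and Gm10719 were named after their values were seen. The members, lists and tests were chosen with earlier results of these data known. Kinase and binding-protein genes that share a prefix with the ribosomal protein and integrin families were removed from these families after the counts had been seen. Windows that touch an exon are not printed, and some genes that the rule selects are not reported here.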

Additional observations from a re-analysis of the deposited data

How the results depend on the processing

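Of 51 alternatives, 44 planned and 7 added after the data had been seen, 42 kept the direction and the side of the 0.05 limit. The 42 include the alternatives with starts counted from 0, which left the members unchanged and so could only repeat the main values. The odds ratio of AHR KO overlap at promoters, 1.05, changed side but passed the test in no case: it was 0.968 at the start of the gene record only, 0.951 against other peaks within 10 kb of a start, 0.781 in the top 10% of scores and 0.772 in windows with a CA repeat. For the TEAD word the odds ratio turned from 0.583 to 1.47 in windows under 25% masked and to 2.47 (p = 0.0338) where these also had at least 60% GC (Fisher's exact test). For the AP-1 word it turned from 0.566 to 1.73 and 3.08 (p = 0.0819) in the same windows, and it was 0.806 (p = 0.534) for promoter peaks in the top 10% of scores by the same exact test. The causes were not tested. The higher scores, lower masking, CA repeats and TNGCGTG kept their calls under every alternative run for them.

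No paired analysis was possible because each list gives 1 value per peak and none per library, and leaving out each culture was not run for the same reason. All 2158 members were also members with starts counted from 0. With a median pileup of 16 fragments in the 1130 promoter peaks on the step, single scores near the middle of the list are imprecise. The other promoter peaks gave no pileup, and the shallower AHR KO list limits every statement on absent overlap.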

Other observations

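The direction of the CA repeats relative to transcription was compared after the data had been seen. Among 1420 promoter peaks with a CA repeat and 1 gene, 786 (55.4%, 95% Wilson interval 52.8 to 57.9) had more TG than CA copies on the strand of the gene. In 5223 promoter windows without a peak that held a CA repeat the share was 55.1% (53.8 to 56.5). The intervals overlap widely.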
